A study of Homo sapiens with 6 samples.

Results

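The genes described here are 40 interferon-stimulated genes, out of 19934 gene symbols counted in each library. They were chosen by name as known targets of interferon signalling and selected on lower counts, taken as a list, in both knockdowns than in si-Ctr. Their changes against si-Ctr are therefore given as a description, without a test, and the si-Ctr libraries are shared by both of these comparisons. The comparison of si-SET with si-ZBTB11 was not itself used in the choice, but both of its groups were, through their counts against si-Ctr. Its p-values are given with that limit.

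RNA was sequenced from 6 libraries of NCI-H1299, an established human lung cancer line labelled as lung adenocarcinoma. The si-Ctr group received a control siRNA, the si-ZBTB11 group an siRNA against the zinc finger protein ZBTB11, and the si-SET group an siRNA against the histone-binding oncoprotein SET, each by transfection with Lipofectamine 3000 over 4 days and with 2 biological replicates. All groups, the controls included, carried transfected siRNA, and no untransfected or interferon-treated cells are in the series. Which ZBTB11 oligo each si-ZBTB11 library received is not given in the labels.

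Type I interferons bind a receptor made of IFNAR1 and IFNAR2, and the kinases JAK1 and TYK2 then phosphorylate STAT proteins, STAT2 among them. STAT2 joins IRF9 in a complex that binds the interferon-stimulated response element in promoters, and the genes it switches on restrict viral replication, sense viral RNA or amplify the signal. Many of them are also transcribed at a low level in cells that have met no added interferon, which is the state these libraries measure.

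The response element can be read directly in several of these promoters. It was searched as 2 copies of GAAA spaced by any 2 bases, on either strand, in the RefSeq promoters of GRCh38.p14, each running from 250 bases before to 50 bases after the start of a gene. The stretches are shown because they come from genes that behaved differently in the results, 6 with lower levels in at least one knockdown (IFIT1, IFIT3, ISG15, IFI44, PARP14 and OAS3) and 2 that stayed near control (IFIT5 and SAMD9). Each is written 5′ to 3′ on the strand of its gene, and capitals mark the motif.
IFIT1, chr10:89392510-89392539: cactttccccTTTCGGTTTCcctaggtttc
IFIT3, chr10:89327865-89327894: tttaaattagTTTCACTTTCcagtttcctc
IFIT5, chr10:89414539-89414567: ttacgtttagTTTCGATTTCttaagtttc
ISG15, chr1:1013380-1013409: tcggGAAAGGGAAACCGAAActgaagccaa
IFI44, chr1:78649761-78649788: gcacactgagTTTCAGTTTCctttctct
PARP14, chr3:122680800-122680829: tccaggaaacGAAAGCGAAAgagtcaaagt
OAS3, chr12:112938452-112938473: agccgggcggGAAAACGAAAcc
SAMD9, chr7:93118096-93118125: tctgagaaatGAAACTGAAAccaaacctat

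A promoter sequence was held for 32 of the 40 genes, and 18 of these (56.2%) contained the motif, against 3.57% of the 35114 promoters of the same length in the table. In the stretch of ISG15 a pair of overlapping copies was found, and in that of SAMD9, on the minus strand of chromosome 7, a single one. The motif was present in genes with lower levels and in genes near control. Of the 17 tested genes with the motif, 10 were lower in si-SET than in si-Ctr at the threshold used here, and of the 11 tested genes whose promoter lacked it, 6 were, where 13.9% of all genes tested were called lower. The genes were chosen on this contrast, and nothing is read from these counts. The median log2 fold changes of si-SET against si-Ctr were -0.39 and -0.37 in these sets. Those of si-ZBTB11 against si-Ctr were -0.23 and -0.18. The 6 tested genes without a promoter sequence had medians of -0.78 in si-SET and -0.21 in si-ZBTB11, and whether they hold the motif is not known here. A match describes the letters of a window, and binding was not measured in these libraries.

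The libraries held 16653115 to 17694522 counts, so that 3 counts correspond to 0.170 to 0.180 CPM, counts scaled by library size, a floor that covers counting error only. The most abundant gene took 1.49% to 1.71% of the counts and the mitochondrial genes 3.01% to 3.34%. The ZBTB11 counts were 925 and 1075 in si-Ctr and 548 and 544 in si-ZBTB11, and SET had 11656 and 11007 counts in si-Ctr and 1032 and 1031 in si-SET. ZBTB11 also fell in si-SET, to 846 and 708 counts (log2 fold change -0.39 ± 0.08 SE, adjusted p = 2.12e-05 by edgeR), and without the second si-Ctr library this was -0.24 (adjusted p = 0.0501, edgeR). SET did not pass the test in si-ZBTB11 (0.01 ± 0.03, adjusted p = 0.863, edgeR). The line expressed VIM, KRT8 and KRT18 strongly and NKX2-1 at 37 to 61 counts, while the lung markers NAPSA (3 to 10 counts) and SFTPB (0 to 7) were close to the floor. Summed markers of leukocytes and fibroblasts reached 4.97 to 6.64 CPM, mostly COL1A1, and were 117% of control in si-ZBTB11 and 126% in si-SET. CD3E was at 0 in all 6 libraries and PTPRC in 5, and the part of such cells in the results was not tested.

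In control cells the 40 genes were expressed at a low level together. In si-Ctr they made up 0.0899% and 0.0911% of all counts, with 0.0780% and 0.0765% in si-ZBTB11, and 0.0644% and 0.0654% in si-SET. In CPM scaled by edgeR's TMM factors their sum was 893 and 907 in si-Ctr, 786 and 769 in si-ZBTB11 and 644 and 654 in si-SET, which is 86.4% and 72.1% of the control mean in the knockdowns. The groups did not overlap in this sum, and the si-SET libraries lay lowest. The list was chosen as lower in both knockdowns, so si-Ctr lying highest was set by that choice. In RNA from whole cultures, fewer cells that transcribe a gene and less RNA per cell cannot be told apart.

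**Figure D1:**
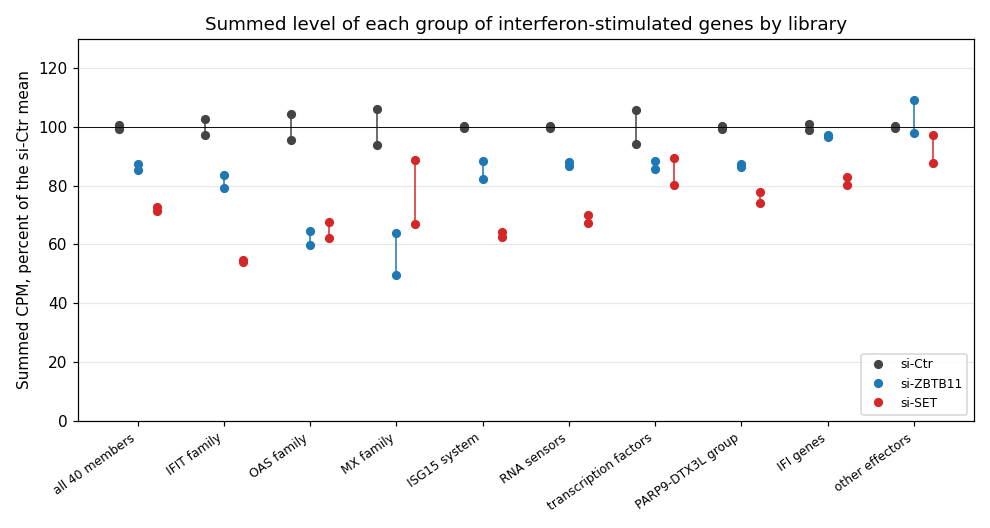
Summed CPM of each group of interferon-stimulated genes in each library, as a percent of the mean of the 2 si-Ctr libraries, with 1 point per library and a line joining the 2 libraries of a group. All 40 genes together lay at 87.3% and 85.5% in si-ZBTB11 and 71.5% and 72.7% in si-SET, while the OAS family lay at 59.7% and 64.7% in si-ZBTB11.

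Of the 40 genes, 34 were abundant enough to be tested by edgeR in each comparison. MX2, RSAD2, CMPK2, XAF1, EPSTI1 and TRIM22 did not, with at most 6 counts in any library. In si-ZBTB11, 9 of the 34 (26.5%) were called lower at an adjusted p under 0.05 and 0 higher, where 10.5% of all 13534 genes tested were called lower, 9.94% higher and 20.5% in either direction. In si-SET, 19 of the 34 (55.9%) were called lower and 0 higher, where 13.9% of all 13599 genes tested were called lower, 13.1% higher and 27.0% in either direction. As these contrasts chose the genes, nothing is read from these counts. By DESeq2's Wald test, fitted to every gene with a count, they were 5 and 15 of 40, beside 1296 of 16866 and 1802 of 16876 genes.

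The 9 genes called lower in si-ZBTB11 were IFIT1, IFIT2, IFIT3, OAS3, OASL, ISG15, STAT2, IRF1 and PARP14, and each was also called lower in si-SET. The 10 called lower in si-SET alone were DDX58, DTX3L, HERC5, HERC6, IFI44, IFI6, IFIH1, OAS2, SAMD9L and UBE2L6. The median log2 fold change of the 34 genes was -0.19 in si-ZBTB11 and -0.39 in si-SET, beside 0.00 for all genes tested in both. By the study's criteria, an unadjusted p under 0.05 with an absolute log2 fold change over 1, 0 genes passed in si-ZBTB11 and 8 in si-SET, all lower, where 1.57% and 2.15% of all genes passed in either direction. Those 8 were IFIT1, IFIT2, IFIT3, OAS2, OASL, IFI44, IFI44L and BST2.

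The si-Ctr libraries differed little from each other for these genes. Of the 34, 20 were higher and 14 lower in the second si-Ctr library, with a median log2 difference of 0.02. Among the 26 genes with a mean of at least 5 CPM over all libraries, the difference between the controls ran from -0.26 for ISG20 to 0.37 for OASL. The lower level of OASL in both knockdowns was thus measured against controls at 7.54 and 9.74 CPM, and the si-ZBTB11 libraries lay below both.

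**Figure D2:**
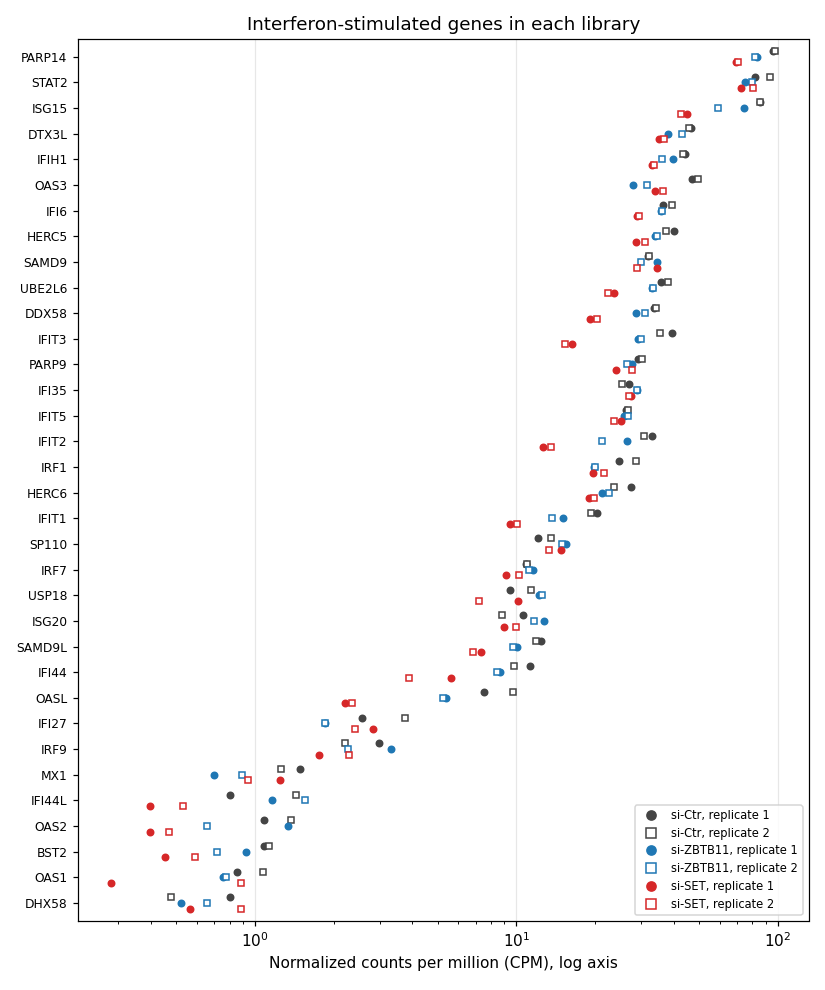
Normalized CPM (log axis) of the 34 tested genes in each of the 6 libraries, sorted by mean level, with filled circles for replicate 1 and open squares for replicate 2. PARP14, STAT2 and ISG15 stood highest and DHX58 lowest, and the si-SET points of IFIT3 (16.3 and 15.3 CPM) lay below every other library.

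Compared between genes per kilobase of transcript, ISG15 was by far the most abundant in si-Ctr, at 134 CPM per kilobase in each of the control libraries. IFI6 followed at 44.7 and 48.5, UBE2L6 at 29.4 and 31.3, IFI35 at 22.9 and 21.4, STAT2 at 18.6 and 21.2 and IFIT3 at 16.4 and 14.8. The ranges of IFI35 and STAT2 nearly touched, so their order is not fixed by these libraries, and the other neighbours in this order were further apart. At the other end, IFI44L, DHX58, OAS2 and MX1 had 0.19 to 0.49 CPM per kilobase.

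By level, the counts called in the contrasts that chose the genes are again a description, beside 10.5% of all genes called lower in si-ZBTB11 and 13.9% in si-SET. Of the 10 genes with a mean of at least 30 CPM over all libraries, 4 were called lower in si-ZBTB11 and 9 in si-SET, SAMD9 being the exception in si-SET. Of the 16 genes between 5 and 30 CPM, 5 and 9 were called, and of the 14 under 5 CPM, 8 were tested and 0 and 1 were called. The summed level nevertheless stood at similar percentages of control in these ranges, 84.9%, 89.1% and 81.6% in si-ZBTB11 and 73.7%, 69.7% and 68.5% in si-SET. A change in the genes under 5 CPM was mostly not detectable at this depth.

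**Figure D3:**
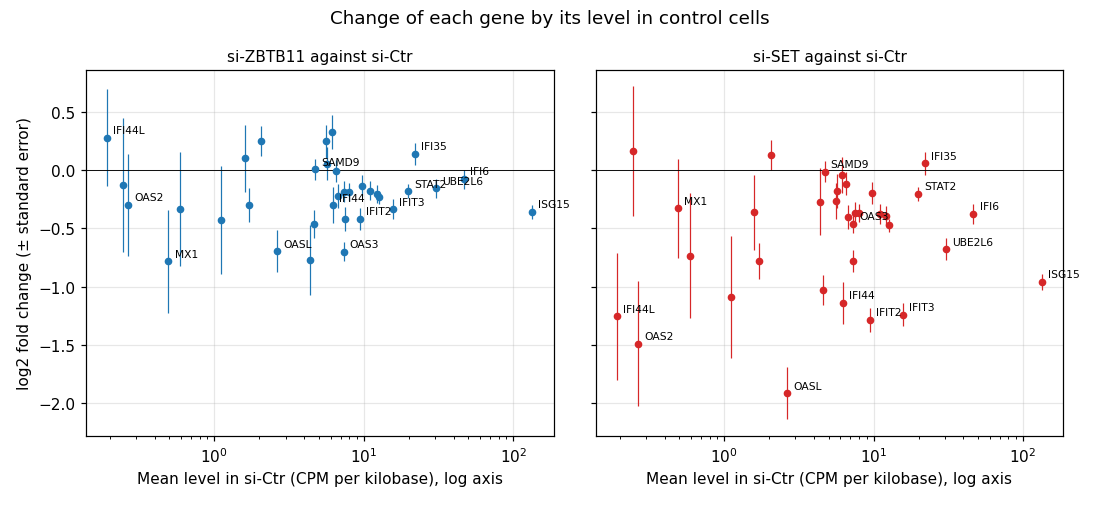
log2 fold change against si-Ctr (± standard error) of each tested gene, plotted by its mean level in si-Ctr in CPM per kilobase (log axis), for si-ZBTB11 and si-SET. Standard errors widen at low level, and ISG15, the most abundant at 134 CPM per kilobase, stood at -0.36 and -0.96.

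Among the transcription factors of the pathway, STAT2 and IRF1 were lower in both knockdowns and IRF7 and IRF9 were not called. STAT2, which acts with IRF9 in the activating complex, measured 81.9 and 93.2 CPM in si-Ctr, 74.7 and 79.7 in si-ZBTB11 and 72.1 and 80.2 in si-SET. IRF1, an activator that binds the same element, measured 24.7 and 28.7 CPM in si-Ctr, 19.9 and 20.0 in si-ZBTB11 and 19.7 and 21.6 in si-SET. Both were lower in every knockdown library than in either control, and the knockdowns overlapped with each other. Their log2 fold changes were -0.18 ± 0.06 and -0.42 ± 0.10 SE in si-ZBTB11 and -0.20 ± 0.06 and -0.37 ± 0.10 in si-SET. Of IRF1's exon bases, 22.9% overlap genes on the opposite strand, among them IRF1-AS1, and the strand setting of the counting is not given in the sources used here.

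IRF7, which amplifies interferon production, measured 10.9 and 11 CPM in si-Ctr, 11.6 and 11.1 in si-ZBTB11 and 9.09 and 10.2 in si-SET. IRF9 had only 37 to 52 counts in si-Ctr, 38 to 57 in si-ZBTB11 and 31 to 39 in si-SET, and the groups overlapped. In addition, 27.2% of the exon bases of IRF9 are shared with overlapping genes. Neither passed the threshold in either knockdown, nor did any of the 4 transcription factors in the direct comparison.

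The sensors of viral RNA separated by gene. DDX58, which encodes RIG-I, measured 33.7 and 34.2 CPM in si-Ctr, 28.6 and 31.1 in si-ZBTB11 and 19.2 and 20.3 in si-SET. IFIH1, which encodes MDA5, measured 44 and 43.4 CPM in si-Ctr, 39.8 and 36.2 in si-ZBTB11 and 33.0 and 33.6 in si-SET. In both genes every si-ZBTB11 library lay below the controls and every si-SET library below si-ZBTB11. Tested between the knockdowns, DDX58 was called (adjusted p = 2.66e-05, edgeR) and IFIH1 was not (adjusted p = 0.112, edgeR). The log2 fold changes against si-Ctr were -0.18 ± 0.09 and -0.78 ± 0.10 SE for DDX58 and -0.20 ± 0.08 and -0.39 ± 0.08 for IFIH1. Of DDX58's exon bases, 43.2% also belong to an overlapping gene model on the same strand, so its counts depend on how shared reads were treated. DHX58, which encodes LGP2, had 8 to 15 counts in all libraries, too few to show a difference of this size.

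The IFIT proteins bind viral RNA and block its translation, and their genes lie side by side on chromosome 10, from 89283694 to 89421605 in hg38. IFIT1 measured 20.4 and 19.4 CPM in si-Ctr, 15.1 and 13.7 in si-ZBTB11 and 9.43 and 10.1 in si-SET. IFIT2 measured 33.0 and 30.9 CPM in si-Ctr, 26.6 and 21.2 in si-ZBTB11 and 12.6 and 13.6 in si-SET. IFIT3 measured 39.3 and 35.5 CPM in si-Ctr, 29.2 and 30.03 in si-ZBTB11 and 16.3 and 15.3 in si-SET. All of them formed the same steps, with si-Ctr highest, si-ZBTB11 between and si-SET lowest, and no overlap between groups. The list was chosen as lower in both knockdowns, so nothing is read from si-Ctr lying highest. Here and for the other members, the share of all genes without such overlap was not counted.

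IFIT5, at the end of the same cluster and with the response element in its promoter shown above, did not follow. It measured 26.2 and 26.7 CPM in si-Ctr, 25.9 and 26.6 in si-ZBTB11 and 25.2 and 23.6 in si-SET. Its log2 fold changes were -0.01 ± 0.10 and -0.12 ± 0.10 SE, against -0.46 ± 0.12 and -1.03 ± 0.13 for IFIT1, -0.42 ± 0.10 and -1.29 ± 0.11 for IFIT2 and -0.34 ± 0.09 and -1.24 ± 0.10 for IFIT3. The summed level of the 4 genes was 81.4% of control in si-ZBTB11 and 54.5% in si-SET.

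The oligoadenylate synthetases, which make the messenger that activates RNase L, had a different order. OAS3 measured 47.2 and 49.7 CPM in si-Ctr, 27.9 and 31.6 in si-ZBTB11 and 34.0 and 36.5 in si-SET. It was the abundant gene of this set for which si-ZBTB11, not si-SET, lay lowest, at -0.70 ± 0.08 SE against -0.46 ± 0.08 in log2. OASL, a related protein that lacks the enzyme activity, measured 7.54 and 9.74 CPM in si-Ctr, 5.39 and 5.24 in si-ZBTB11 and 2.20 and 2.35 in si-SET. With 26.3% of control left in si-SET (log2 fold change -1.92 ± 0.22 SE), OASL had the largest decrease of the 34 tested genes, and in si-ZBTB11 it stood at -0.70 ± 0.18.

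OAS1 and OAS2 flank OAS3 on chromosome 12, from 112905856 to 113011723, and were scarcely transcribed. OAS1 had 15 and 18 counts in si-Ctr, 13 and 13 in si-ZBTB11 and 5 and 15 in si-SET. OAS2 had 19 and 23 counts in si-Ctr, 23 and 11 in si-ZBTB11 and 7 and 8 in si-SET, so that only si-SET lay apart from the controls. MX1, a GTPase that traps viral nucleocapsids, had 26 and 21 counts in si-Ctr, 12 and 15 in si-ZBTB11 and 22 and 16 in si-SET. Its neighbour MX2 had 1 count in 1 si-Ctr library and 0 in the other 5 libraries.

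ISG15 is a ubiquitin-like protein that UBE2L6 and HERC5 attach to other proteins and USP18 removes. ISG15 itself measured 85.4 and 85.7 CPM in si-Ctr, 74.1 and 59.1 in si-ZBTB11 and 45.1 and 42.8 in si-SET. The controls lay close together, while the si-ZBTB11 libraries were further apart than in any other group. Its conjugating enzyme UBE2L6 measured 35.8 and 38.2 CPM in si-Ctr, 32.9 and 33.4 in si-ZBTB11 and 23.7 and 22.5 in si-SET. The log2 fold changes were -0.36 ± 0.06 and -0.96 ± 0.07 SE for ISG15 and -0.16 ± 0.08 and -0.68 ± 0.09 for UBE2L6.

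HERC5, the ligase of the system, measured 40.1 and 37.3 CPM in si-Ctr, 34.0 and 34.6 in si-ZBTB11 and 28.6 and 30.96 in si-SET. Its neighbour HERC6 measured 27.4 and 23.7 CPM in si-Ctr, 21.3 and 22.5 in si-ZBTB11 and 18.98 and 19.8 in si-SET. The libraries of both lay in the same 3 steps without overlap. The log2 fold changes against si-Ctr were -0.17 ± 0.08 and -0.38 ± 0.09 SE for HERC5 and -0.22 ± 0.10 and -0.40 ± 0.10 for HERC6. In si-SET against si-ZBTB11 neither HERC5 nor HERC6 was called (adjusted p = 0.0997 and 0.272, edgeR), so the step between the knockdowns is not established. USP18, which removes ISG15 and also damps receptor signalling, stood apart from the rest of the system, at 9.43 and 11.4 CPM in si-Ctr, 12.2 and 12.5 in si-ZBTB11 and 10.1 and 7.17 in si-SET. The si-ZBTB11 libraries of USP18 were the highest and the si-SET libraries overlapped with the controls, and 29.0% of its 31-base words also occur in other genes, mostly the near copy USP41, so its counts are uncertain.

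PARP9 and DTX3L, which act as a complex and share a promoter region, and PARP14, a mono-ADP-ribosyltransferase, lie within 203 kilobases on chromosome 3. PARP14 measured 96.2 and 97.9 CPM in si-Ctr, 83.5 and 81.6 in si-ZBTB11 and 69.1 and 70.6 in si-SET. Its replicates lay close together and the groups were well apart, at -0.23 ± 0.06 and -0.47 ± 0.06 SE in log2. DTX3L measured 46.6 and 45.9 CPM in si-Ctr, 38.0 and 43.2 in si-ZBTB11 and 35.02 and 36.6 in si-SET. PARP9 differed least of the 3, with 29.3 and 30.1 CPM in si-Ctr, 27.7 and 26.5 in si-ZBTB11 and 24.1 and 27.7 in si-SET, and log2 fold changes of -0.13 ± 0.09 and -0.20 ± 0.09.

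The IFI genes, named only for their induction by interferon, covered the whole range of responses. IFI44 measured 11.3 and 9.80 CPM in si-Ctr, 8.64 and 8.46 in si-ZBTB11 and 5.65 and 3.88 in si-SET. Its neighbour IFI44L, on the same 44.2 kilobases of chromosome 1, had 14 and 24 counts in si-Ctr, 20 and 26 in si-ZBTB11 and 7 and 9 in si-SET. In the pair, si-SET was lowest in every library, whereas si-ZBTB11 lay below the controls for IFI44 and overlapped with them for IFI44L. Their log2 fold changes in si-SET were -1.14 ± 0.18 and -1.26 ± 0.54 SE.

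IFI6, a mitochondrial and endoplasmic reticulum protein that protects cells from death, measured 36.3 and 39.4 CPM in si-Ctr, 35.7 and 36.1 in si-ZBTB11 and 29.0 and 29.4 in si-SET. The si-ZBTB11 libraries were just under the controls and the si-SET libraries well below both. Of IFI6's exon bases, 23.1% overlap a noncoding gene on the same strand, so its counts depend on how shared reads were treated. IFI27 had 45 and 63 counts in si-Ctr, 32 and 31 in si-ZBTB11 and 50 and 41 in si-SET, and was lowest in si-ZBTB11 (log2 fold change -0.77 ± 0.30 SE). IFI35 measured 27.1 and 25.3 CPM in si-Ctr, 28.9 and 28.8 in si-ZBTB11 and 27.6 and 27.0 in si-SET, at 110% and 104% of control in the knockdowns.

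Among the other effectors, the neighbours SAMD9 and SAMD9L, antiviral factors within 48.9 kilobases on chromosome 7, went separate ways. SAMD9 measured 32.0 and 32.2 CPM in si-Ctr, 34.5 and 29.9 in si-ZBTB11 and 34.5 and 29.0 in si-SET. SAMD9L measured 12.5 and 11.9 CPM in si-Ctr, 10.1 and 9.71 in si-ZBTB11 and 7.34 and 6.82 in si-SET. Thus SAMD9 overlapped between all groups while SAMD9L had no overlap, with log2 fold changes in si-SET of -0.01 ± 0.09 and -0.78 ± 0.15 SE. Of this pair only SAMD9 had the response element in its promoter window.

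ISG20, an exonuclease that degrades RNA, measured 10.6 and 8.84 CPM in si-Ctr, 12.8 and 11.7 in si-ZBTB11 and 8.98 and 9.93 in si-SET. SP110, a nuclear body protein, measured 12.1 and 13.6 CPM in si-Ctr, 15.5 and 14.9 in si-ZBTB11 and 14.9 and 13.3 in si-SET. Both were highest in si-ZBTB11, at 0.33 ± 0.15 and 0.25 ± 0.13 SE in log2, and neither was called in either knockdown. BST2, which tethers budding virions to the cell surface, had 19 and 19 counts in si-Ctr, 16 and 12 in si-ZBTB11 and 8 and 10 in si-SET. RSAD2, CMPK2 and EPSTI1 had at most 3 counts in any library, and XAF1 and TRIM22 at most 4 and 6.

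**Figure D4:**
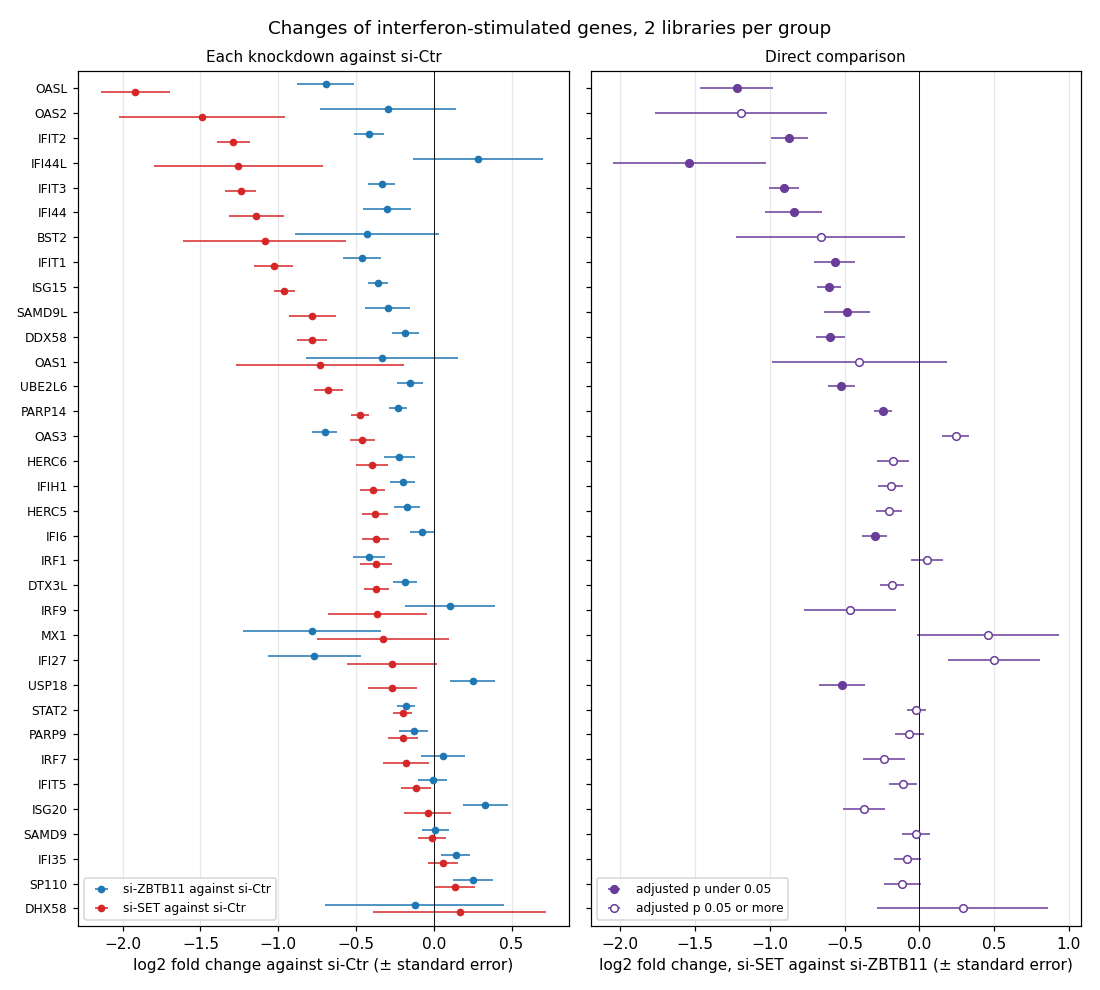
Left, log2 fold change of each tested gene in si-ZBTB11 (blue) and si-SET (red) against si-Ctr, and right, in si-SET against si-ZBTB11, all with standard errors and filled points on the right for an adjusted p under 0.05. Most genes lay further left in si-SET than in si-ZBTB11, with 29 of 34 below 0 on the right, and OAS3, MX1, DHX58, IRF1 and IFI27 lay above 0.

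The direct comparison asked whether the knockdowns differed in these genes, and both of its groups had entered the choice of the list. The targets were lowered unequally, ZBTB11 to 54.8% of control in si-ZBTB11 and SET to 8.98% in si-SET. ZBTB11 stood at 76.3% of control in si-SET. The part of this in the differences was not tested. Relative to si-ZBTB11, 13 of the 34 tested genes (38.2%) fell in si-SET and 0 rose, with p-values of the quasi-likelihood test in edgeR adjusted by Benjamini-Hochberg over all genes. Of all 13549 genes tested, 9.61% were called lower, 8.58% higher and 18.2% in either direction. The median log2 fold change of the 34 genes was -0.27, beside 0.00 for all genes. An unadjusted p under 0.05 with an absolute log2 fold change over 1 was reached by 3 genes, OAS2, OASL and IFI44L, where 1.36% of all genes reached it. DESeq2's Wald test, fitted to every gene with a count, called 9 of 38 members, beside 1232 of 16898 genes in all.

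IFIT1, IFIT2, IFIT3, ISG15 and OASL were among the genes called. IFIT3 fell by 0.90 ± 0.10 SE on the log2 scale (adjusted p = 4.23e-08, edgeR), ISG15 by 0.60 ± 0.08 (adjusted p = 1.05e-06, edgeR) and IFIT2 by 0.87 ± 0.12 (adjusted p = 2.53e-06, edgeR). IFIT1 decreased by 0.57 ± 0.14 (adjusted p = 0.00301, edgeR), and OASL by 1.22 ± 0.24 (adjusted p = 3.61e-04, edgeR). In the 5 genes, both si-SET libraries lay below both si-ZBTB11 libraries. Genes called in this comparison mostly separate in this way, so it adds nothing to the calls. The share of all genes that did so was not counted. The calls were kept with each library left out in turn, with an adjusted p of at most 0.0296 in edgeR, and under DESeq2's Wald test.

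DDX58 decreased by 0.60 ± 0.10 SE on the log2 scale (adjusted p = 2.66e-05, edgeR), UBE2L6 by 0.52 ± 0.09 (adjusted p = 6.24e-05, edgeR), IFI44 by 0.84 ± 0.19 (adjusted p = 0.00151, edgeR) and PARP14 by 0.24 ± 0.06 (adjusted p = 0.00382, edgeR). These were kept with every library left out as well. The remaining 4 calls, USP18, IFI6, SAMD9L and IFI44L, did not hold under every alternative. DESeq2's Wald test ended those of USP18 (adjusted p = 0.14), IFI6 (adjusted p = 0.0979) and SAMD9L (adjusted p = 0.2). USP18 decreased by 0.52 ± 0.15 (adjusted p = 0.0167, edgeR) and without the second si-SET library by 0.29 (adjusted p = 0.28, edgeR). IFI6 decreased by 0.30 ± 0.08 (adjusted p = 0.0114, edgeR), and its adjusted p was 0.0591 without the second si-ZBTB11 library and 0.0518 without the first si-SET library.

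SAMD9L stood at -0.48 ± 0.16 SE (adjusted p = 0.0282, edgeR), and its adjusted p was 0.111 without the first si-ZBTB11 library, 0.0637 without the second and 0.12 without the second si-SET library. IFI44L, at 7 to 26 counts in these libraries, stood at -1.54 ± 0.51 (adjusted p = 0.0329, edgeR), and leaving out any of the 4 libraries ended the call, at an adjusted p of 0.0785 to 0.274. USP18 and IFI44L were not called in si-SET against si-Ctr. For both, the mean of the si-ZBTB11 libraries lay above the control mean, at 119% and 121% of control.

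Of the 21 genes not called in the direct comparison, OAS3 came nearest in the opposite direction, higher in si-SET than in si-ZBTB11 by 0.24 ± 0.09 SE on the log2 scale (95% interval 0.07 to 0.41, adjusted p = 0.0516, edgeR). Under 4 other settings and without the second si-ZBTB11 or the first si-SET library its adjusted p lay between 0.0252 and 0.0489 in edgeR, and DESeq2's Wald test gave 0.269. STAT2 (-0.02, 95% interval -0.14 to 0.10), IRF1 (0.05, -0.16 to 0.26), SAMD9 (-0.02, -0.20 to 0.16) and IFIT5 (-0.11, -0.29 to 0.08) had intervals that included 0. That of IFIT5 also included the change called for PARP14 (-0.24), and that of IRF1 the difference of OAS3 (0.24). For the scarce genes the intervals were wide, from -1.55 to 0.75 for OAS1, -0.47 to 1.39 for MX1, -0.83 to 1.41 for DHX58 and -1.77 to 0.45 for BST2, so a difference was not detectable at this depth.

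Upstream of these genes, the interferons themselves were close to absent. Of 10 interferon ligand genes, IFNE had 24 to 45 counts and the others 0 counts, other than a single count of IFNK in 1 si-ZBTB11 library. A count of 0 allows up to 0.170 to 0.180 CPM. IFNE, an epithelial type I interferon, did not pass the test in either knockdown (log2 fold change 0.57 ± 0.32 SE in si-ZBTB11 and 0.30 ± 0.35 in si-SET, adjusted p = 0.21 and 0.574, edgeR).

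Of 14 tested receptor and JAK-STAT signalling genes, 1 fell and 0 rose in si-ZBTB11, and 4 fell and 0 rose in si-SET. The shares called, all lower, were 7.14% and 28.6%. Of all genes tested, 10.5% and 13.9% were called lower, and 20.5% and 27.0% in either direction. The kinase gene JAK1 fell in both knockdowns, by 0.18 ± 0.04 (adjusted p = 0.00117, edgeR) and by 0.20 ± 0.05 (adjusted p = 2.08e-04, edgeR). Without the second si-SET library the latter was 0.0516 in adjusted p. The receptor gene IFNAR1 stood at -0.06 ± 0.06 and -0.12 ± 0.06 in the knockdowns (adjusted p = 0.527 and 0.113, edgeR), and without the first si-SET library at -0.18 (adjusted p = 0.0401, edgeR). IFNAR2 (-0.34 and 0.17) and TYK2 (-0.04 and -0.05) did not pass.

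The genes that lead to interferon production, sensors and adaptors outside the 40, moved in both directions. Of 13 tested, 2 fell and 1 rose in si-ZBTB11, 6 fell and 3 rose in si-SET, and 4 fell and 1 rose in si-SET against si-ZBTB11. These were 23.1%, 69.2% and 38.5% of the list, beside 20.5%, 27.0% and 18.2% of all genes called in either direction, so the share in si-ZBTB11 was near that of all genes. In si-SET against si-Ctr, STING1 (TMEM173 in the files), the adaptor of the DNA-sensing pathway, decreased by 0.68 ± 0.07 SE on the log2 scale (adjusted p = 3.59e-13, edgeR). Its sensor CGAS decreased by 0.53 ± 0.07 (adjusted p = 5.06e-09, edgeR), MAVS, the adaptor of RIG-I and MDA5, by 0.29 ± 0.05 (adjusted p = 2.08e-07, edgeR) and IRF3 by 0.36 ± 0.07 (adjusted p = 9.47e-06, edgeR). STING1, CGAS and MAVS also fell against si-ZBTB11 (-0.65, -0.44 and -0.22), while RNF135, a ligase that activates RIG-I, rose (0.56 ± 0.11, adjusted p = 3.90e-04, edgeR). IFI16, a DNA sensor, rose in si-ZBTB11 (0.52 ± 0.08, adjusted p = 3.17e-07, edgeR) and less in si-SET (0.24 ± 0.08, adjusted p = 0.0233, edgeR). DESeq2's Wald test did not call its rise in si-SET (adjusted p = 0.174).

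A further list held 40 interferon-stimulated genes outside the members. Of the 31 tested, 6 fell and 1 rose in si-ZBTB11, 14 fell and 1 rose in si-SET, and 7 fell and 0 rose in si-SET against si-ZBTB11. These were 22.6%, 48.4% and 22.6% of the list, beside 20.5%, 27.0% and 18.2% of all genes called in either direction. Their median log2 fold changes were -0.04, -0.14 and -0.11. The motif occurred in 18 of the 30 with a promoter sequence (60.0%). LGALS3BP, a secreted glycoprotein, measured 57.3 and 61.2 CPM in si-Ctr, 43.9 and 45.9 in si-ZBTB11 and 30.4 and 36.1 in si-SET. It decreased by 0.40 ± 0.07 SE and by 0.83 ± 0.08 on the log2 scale (adjusted p = 3.38e-06 and 3.50e-16, edgeR). PML, the organiser of nuclear bodies, decreased by 0.27 ± 0.06 and 0.59 ± 0.06 (adjusted p = 7.63e-05 and 6.53e-15, edgeR). PARP10 stood at -0.71 ± 0.18 and -1.52 ± 0.21 (adjusted p = 0.00195 and 7.35e-09, edgeR), and without the second si-ZBTB11 library the former was -0.56 (adjusted p = 0.0578, edgeR). DDX60, a helicase that assists RIG-I, and HELZ2 fell in si-SET against si-ZBTB11 (-0.73 ± 0.14 and -0.34 ± 0.06, adjusted p = 1.96e-04 and 4.55e-05, edgeR). OGFR, an opioid growth factor receptor, rose in both knockdowns (0.65 ± 0.08 and 0.60 ± 0.08, adjusted p = 2.33e-11 and 7.15e-10, edgeR).

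**Figure D5:**
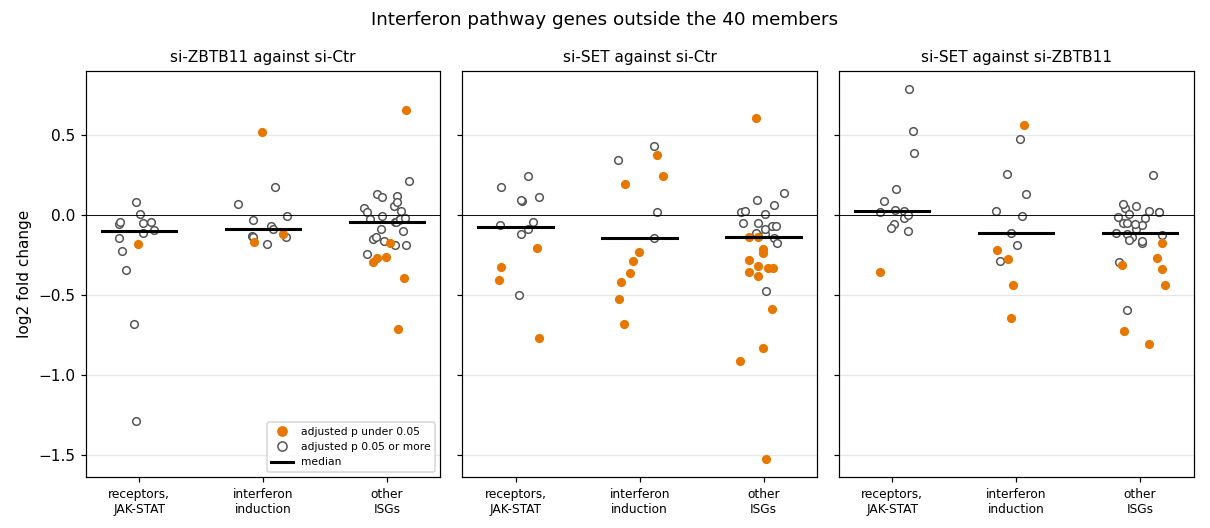
log2 fold change of each tested gene of 3 interferon pathway lists outside the 40 members in the 3 comparisons, with filled points for an adjusted p under 0.05 and a bar at the median. In si-SET against si-Ctr, 4 of 14 receptor and JAK-STAT genes, 6 of 13 induction genes and 14 of 31 other interferon-stimulated genes fell. In the same order 0, 3 and 1 rose, where 13.9% of all genes tested were called lower and 13.1% higher.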

How the data were processed

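The authors sequenced NEBNext Ultra RNA libraries, aligned them to hg38 with HISAT2 2.0.5, and deposited whole-number counts per gene symbol made with featureCounts 1.5.0-p3, without normalization. These tools and versions are from the submitters' processing notes. The strand setting, the treatment of shared reads and the annotation are not given in the sources used here.

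From the counts, pairs of groups were compared in edgeR 4.0.16 (R 4.3.3) with TMM normalization, the filterByExpr defaults and a two-sided quasi-likelihood test, with Benjamini-Hochberg adjustment over all genes tested and a threshold of 0.05. Each SE is the absolute log2 fold change divided by the square root of F. DESeq2 1.42.0 was an alternative, beside other normalizations, filters, fits and each library left out. The scripts were tested on simulated data. The 40 members and the pathway lists were chosen with earlier results of these data known. Genes named outside the members were ZBTB11, SET, IFNAR1, IFNAR2, JAK1 and TYK2, cell markers, and from each pathway list up to 4 genes with the smallest adjusted p in each comparison; some single-gene results under this rule are not reported here. IFNE, IFNK and IRF1-AS1 were named after their values or positions were seen.

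Counts between replicates differed by more than sampling noise (chi-square per degree of freedom 2.34 to 2.71), so each library was a separate sample. Deviations of same-numbered libraries correlated at 0.003 to 0.014, so the numbers were not taken as pairs. With 2 against 2 libraries an exact permutation test cannot go below p = 0.333. Overlaps and positions are from GENCODE on hg38, with 19288 of 19934 symbols matched. Promoters are from RefSeq.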

Additional observations from a re-analysis of the deposited data

How the results depend on the processing

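No called value changed direction under any alternative run. Counts here cover both directions. DESeq2's Wald test called 5 members, 1 induction gene, 3 other interferon-stimulated genes and 1296 genes in all in si-ZBTB11 against si-Ctr, 2 receptor genes, 9 other interferon-stimulated genes and 1802 in all in si-SET against si-Ctr, and 1232 in all in si-SET against si-ZBTB11. The study's criteria gave 0, 8 and 3 members in these comparisons, 0 induction genes in each, 0, 1 and 0 other interferon-stimulated genes, 0 receptor genes in the comparisons with si-SET, and 213, 293 and 184 genes in all. At least 10 counts in every library gave 2 receptor genes in si-ZBTB11 against si-Ctr, and testing every gene with at least 1 count, or all 6 libraries in one fit, gave 1 induction gene there. The cause of these differences was not tested.

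With each library left out in turn, 6 to 9, 16 to 19 and 10 to 12 members were called. The ranges were 1 to 2 and 2 to 4 for receptor genes and 1 to 3 and 6 to 8 for induction genes in the comparisons with si-Ctr, 4 to 6 and 9 to 14 for other interferon-stimulated genes, and 1794 to 2197, 2411 to 2936 and 1799 to 2000 for all genes. The counts that moved by over 1.5 times did so without the second si-Ctr library for induction genes (1), other interferon-stimulated genes (4) and all genes (1794 and 2411), without the second si-ZBTB11 library for receptor genes (2), and in si-SET against si-Ctr without the first si-Ctr library for receptor genes (2) and without the first si-SET library for other interferon-stimulated genes (9). With the replicate number as a block, 10, 19 and 15 members and 3155, 4103 and 2996 genes were called, and the block ended no call of a named gene. Depth limits the genes under 5 CPM, and where a group was left with a lone library it was assumed to vary like the other group.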
